A study of Mus musculus with 9 samples.

Results

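Mouse livers sampled after a toxic dose of acetaminophen (APAP) were compared between animals that also received HDF cells and animals given APAP alone. The comparison takes 6 of the 9 libraries of the series: the 3 labelled APAP_HDF and the 3 labelled APAP. All 17582 expressed genes of 28956 listed were tested between them. The remaining 3 libraries, labelled APAP_MSC, entered only the estimate of the spread and a contrast with APAP_HDF given near the end.

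The mice were of strain C57BL6J and 8 weeks old, and every group received APAP intraperitoneally at 300 mg/kg. In the APAP_HDF group 500000 HDF cells were injected intravenously in saline 90 min later, and the APAP_MSC group received the same number of MSC. The stated time point is 24 h. The labels do not expand HDF or MSC, which commonly stand for human dermal fibroblasts and mesenchymal stromal cells, and do not give the species, donor or passage of the cells. Whether the APAP group received an intravenous injection of saline is not stated, so the cells and their injection cannot be told apart. No untreated liver is part of the design. The material was a piece of whole liver, and the labelled cell type is hepatocyte. The hepatocyte transcripts Alb, at 62366 to 86006 CPM (read counts normalised to the TMM-scaled size of each library), and Hnf4a, at 682 to 792 CPM, were abundant in all 6 libraries. Transcripts of macrophages, endothelium and stellate cells were present as well, so the values describe whole liver.

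Acetaminophen is turned by cytochromes P450 of pericentral hepatocytes into a reactive metabolite that depletes glutathione, binds proteins and damages mitochondria. Hepatocytes around the central veins die, and monocytes and neutrophils enter the dead areas to clear them. Surviving hepatocytes respond through several stress programmes. Heat shock factor 1 raises cytosolic chaperones when proteins unfold. The integrated stress response phosphorylates the initiation factor eIF2 alpha, which lowers bulk translation while favouring the translation of ATF4, and ATF4 with C/EBP partners raises genes of amino acid supply, CHOP and the hormone FGF21. In the same period, genes of drug, bile acid and amino acid metabolism are usually low.

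The libraries held 53267231 to 63175573 counts. The file headers name the group of each library but carry no number, so libraries are numbered 1 to 3 in column order within a group, and values per library are given in that order. Nothing in the labels says that each library came from its own animal, so the tests measure the spread between these samples. The sample labels also carry numbers, 3840 to 3842 in APAP_HDF and 3138, 3140 and 3846 in APAP. What those count is not stated, and the columns could not be tied to them.

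Within both groups the libraries lay apart. On the first principal component of the 6 libraries, which held 31.6% of the variance, APAP lay at -36.78, -25.96 and -0.13 and APAP_HDF at -10.1, 21.63 and 51.34. APAP library 3 and APAP_HDF library 1 thus overlapped between the groups on that axis. The same pair lay together on the second component, which held 22.4%, at -34.31 and -34.62, while the other 4 libraries lay between 8.46 and 25.3. By the root mean square difference of log2 CPM, APAP library 3 was nearer to APAP_HDF libraries 1 (0.557) and 2 (0.56) than to APAP libraries 1 (0.633) and 2 (0.615). The median SD of log2 CPM per gene within a group was 0.23 in APAP and 0.218 in APAP_HDF, against a median size of the log2 difference between the groups of 0.167.

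**Figure D1:**
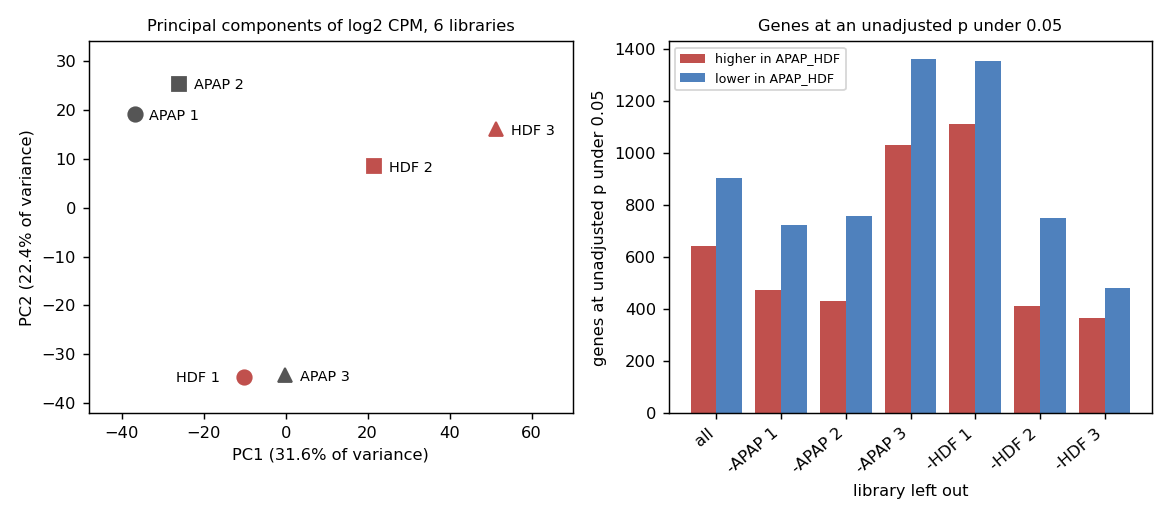
Left: the 6 libraries on the first and second principal components of log2 CPM (axes with their share of variance, grey for APAP and red for APAP_HDF, 1 point per library). Right: number of genes at an unadjusted p under 0.05 in edgeR, higher (red) and lower (blue) in APAP_HDF, with all libraries and with each library left out. APAP library 3 and APAP_HDF library 1 lie together near the bottom, and the counts are largest when either of them is left out.

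No gene differed between APAP_HDF and APAP when adjusted over all genes. In edgeR's quasi-likelihood test 0 of 17582 genes (0%) passed at a Benjamini-Hochberg adjusted p under 0.05, and the smallest adjusted p was 0.357. At an unadjusted p under 0.05 stood 1544 genes (8.78%), 641 higher (3.65%) and 903 lower (5.14%) in APAP_HDF. In 2065 genes (11.7%) the groups did not overlap, with every library of one above every library of the other, 996 with APAP_HDF higher (5.66%) and 1069 with APAP_HDF lower (6.08%). Such an arrangement of 3 against 3 can reach an exact permutation p of no less than 0.1, two-sided. The same 0.1 is the share of genes expected without overlap if the group labels were arbitrary, close to the 11.7% found. The median log2 difference over all tested genes was -0.00, and 49.0% of genes had a positive one.

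The call depended on the tool and on single libraries. DESeq2 called 83 genes (0.472%), 35 higher and 48 lower, of which 78 had groups that did not overlap, while limma-voom called 0. DESeq2 left the adjusted p of 1371 genes undefined and had 1648 genes at an unadjusted p under 0.05. Without APAP library 3 edgeR called 32 genes, 10 higher and 22 lower, of which 11 were among the 83. Without APAP_HDF library 1 it called 1, Elovl3, and without any of the other libraries 0. Below, "called by DESeq2" refers to the 83 genes. For the genes described below, every edgeR adjusted p with all libraries lay between 0.438 (Cyp2c70) and 0.999 (Chrna4), and log2 differences carry their SE from that fit.

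Cytosolic chaperone transcripts lay higher in APAP_HDF, and the inducible HSP70 genes differed by more than 4-fold. Hspa1a lay at 3.91, 8.75 and 9.94 CPM in APAP and at 25.8, 51.1 and 32.4 CPM in APAP_HDF. Hspa1b, its neighbour and near-identical copy, lay at 10.9, 20 and 23.9 CPM and at 62.6, 110 and 78.2 CPM. In both genes every APAP_HDF library stood above every APAP library, by 4.82-fold for Hspa1a (log2 difference 2.27 ± 0.45) and 4.58-fold for Hspa1b (2.20 ± 0.43). Both were called by DESeq2, but reads can be shared between these copies, so they are not separate evidence. Hsph1, an HSP70 nucleotide exchange factor, lay at 57.4, 45.3 and 106 CPM in APAP and at 110, 116 and 116 CPM in APAP_HDF (0.71 ± 0.27). Hspa8, the constitutive HSP70, lay at 417, 525 and 1387 CPM and at 1556, 1119 and 1036 CPM (0.67 ± 0.40). In these 2 genes APAP library 3 stood with or beside the APAP_HDF libraries, and both passed edgeR when it was left out, with log2 differences of 1.14 and 1.38. Hsp90aa1, the inducible HSP90, lay at 371, 274 and 366 CPM against 473, 447 and 437 CPM, without overlap (0.42 ± 0.15).

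Of the 18 heat shock genes, all of which were expressed, 15 lay higher and 3 lower, with a median log2 difference of 0.23 that ran from 0.19 without APAP library 1 to 0.43 without APAP library 3. The groups did not overlap in 5 of them, all higher in APAP_HDF, against 5.66% of all tested genes. On average over the list the libraries lay at -0.56, -0.29 and 0.05 in APAP and at 0.25, 0.29 and 0.27 in APAP_HDF, as log2 CPM relative to the mean of the 6 libraries. The chaperones of the endoplasmic reticulum differed less. Derl3, a component of the pathway that removes misfolded proteins from that compartment, lay at 3.64, 12.1 and 9.99 CPM against 34.1, 25.4 and 26.5 CPM (3.34-fold, log2 difference 1.74 ± 0.37, called by DESeq2). Hspa5, which encodes the main chaperone BiP, lay at 1506, 2097 and 1650 CPM against 2064, 1798 and 1813 CPM, with overlap (0.11 ± 0.17). Derl3 was the only one of 22 members of the endoplasmic reticulum list in which the groups did not overlap, against 5.66% of all tested genes, and the median of that list was 0.11, or 0.04 without APAP_HDF library 3.

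Transcripts of the integrated stress response lay higher as a group. Fgf21, a hormone that the liver releases under starvation and stress, lay at 1.14, 0.82 and 1.98 CPM in APAP and at 5.59, 4.57 and 19 CPM in APAP_HDF (7.22-fold, log2 difference 2.85 ± 0.63). Its difference came to 1.93 without APAP_HDF library 3, in which it was highest. Nupr1, a small chromatin protein induced by stress, lay at 2.25, 2.26 and 2.16 CPM and at 3.92, 4.68 and 6.81 CPM (1.20 ± 0.24). Ddit3, which encodes the transcription factor CHOP, lay at 9.63, 13 and 13.7 CPM and at 14.8, 27.6 and 24.4 CPM (0.88 ± 0.23). Atf5, a factor of the mitochondrial stress response, lay at 407, 375 and 486 CPM and at 589, 591 and 662 CPM (0.54 ± 0.13). In these 4 genes the groups did not overlap and DESeq2 made a call, and they were the only called members of the list, which has 23, against 0.472% of all tested genes. Atf3, another stress-induced factor, lay at 3.35, 6.85 and 7.23 CPM and at 13.9, 9.64 and 7.39 CPM, with the groups separated by a narrow gap (0.83 ± 0.32).

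Of the 23 members of this list, all of them expressed, 20 lay higher and 3 lower. The median was 0.38, and between 0.29 and 0.39 with 1 library left out. The groups did not overlap in 10 members that lay higher, against 5.66% of all tested genes, and in 1 that lay lower. The average level over the list was -0.29, -0.11 and -0.32 in APAP and 0.16, 0.17 and 0.39 in APAP_HDF, so the groups stood apart by this measure. The 3 lower members were Ddit4, an inhibitor of mTORC1 (-0.69), Cebpb, a transcription factor of the acute phase (-0.44), and Slc7a11, the cystine transporter that feeds glutathione synthesis (-0.43). Gdf15, a circulating stress hormone, lay at 4.31, 12.4 and 9.1 CPM against 13.2, 11.4 and 19.1 CPM, with overlap (0.76 ± 0.36). By average level the groups also stood apart in the heat shock list, higher in APAP_HDF. They stood apart as well, lower in APAP_HDF, in the lists of regeneration growth factors, monocytes and macrophages, and cholangiocytes. No other of the 46 lists did so. If the group labels were arbitrary, a share of 0.1 of the lists would be expected to stand apart.

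The promoters of 3 members are shown because each holds the same 8 letters of the element through which ATF4 and C/EBP factors act on such genes. They are the 250 bases before the start site, read 5′ to 3′ on the strand of the gene, from the promoter table of RefSeq on build GRCm38.p6. Fgf21 lies on the minus strand at chr7:45615491-45615740, Nupr1 on the minus strand at chr7:126625471-126625720 and Atf3 on the minus strand at chr1:191183334-191183583. Capitals mark the match to TGATGNAA on the opposite strand, whose first base lay 139 bases before the start in Fgf21 and 110 bases before it in Nupr1 and in Atf3.
Fgf21: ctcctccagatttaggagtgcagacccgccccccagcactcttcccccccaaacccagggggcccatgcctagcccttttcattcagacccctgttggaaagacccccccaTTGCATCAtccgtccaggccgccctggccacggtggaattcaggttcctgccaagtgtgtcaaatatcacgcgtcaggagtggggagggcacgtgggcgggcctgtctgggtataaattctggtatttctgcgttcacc
Nupr1: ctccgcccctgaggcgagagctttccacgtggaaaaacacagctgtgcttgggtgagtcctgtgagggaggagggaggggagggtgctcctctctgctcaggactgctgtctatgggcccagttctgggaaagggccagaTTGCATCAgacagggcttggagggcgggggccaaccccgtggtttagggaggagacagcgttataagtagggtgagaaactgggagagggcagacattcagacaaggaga
Atf3: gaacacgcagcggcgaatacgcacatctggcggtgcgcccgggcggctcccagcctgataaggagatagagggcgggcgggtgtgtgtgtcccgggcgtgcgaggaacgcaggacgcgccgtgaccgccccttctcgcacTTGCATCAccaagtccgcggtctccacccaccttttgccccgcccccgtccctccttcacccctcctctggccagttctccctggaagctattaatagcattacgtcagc

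Both strands of 300 bases around each start were searched, and 1304 of 32851 RefSeq promoters (3.97%) held the motif. Single promoter entries are counted there. A list member was instead counted if any of its entries held the motif, here and for the heat shock genes, so the shares differ in unit. Of the 22 list members found in that table, 9 held it: Fgf21, Nupr1, Atf3, Trib3, Asns, Chac1, Slc7a11, Vldlr and Aars. Genes are placed in such a list partly for being ATF4 targets, so that share says nothing of these livers. The 9 included Slc7a11, which lay lower, and Aars, an alanine transfer RNA synthetase gene whose difference was 0.15 ± 0.11. Ddit3 and Atf5 had no match in the window. For the heat shock genes the heat shock element was searched separately, as a fixed pattern of 13 letters, and other forms were not searched. That pattern was found in 198 promoters (0.603%) and in 4 of 13 matched members, Hsph1, Hspd1, Hspe1 and Chordc1. Hspa1a and Hspa1b were among the members without a match. Such a search cannot tell whether their promoters hold the element in another form.

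**Figure D2:**
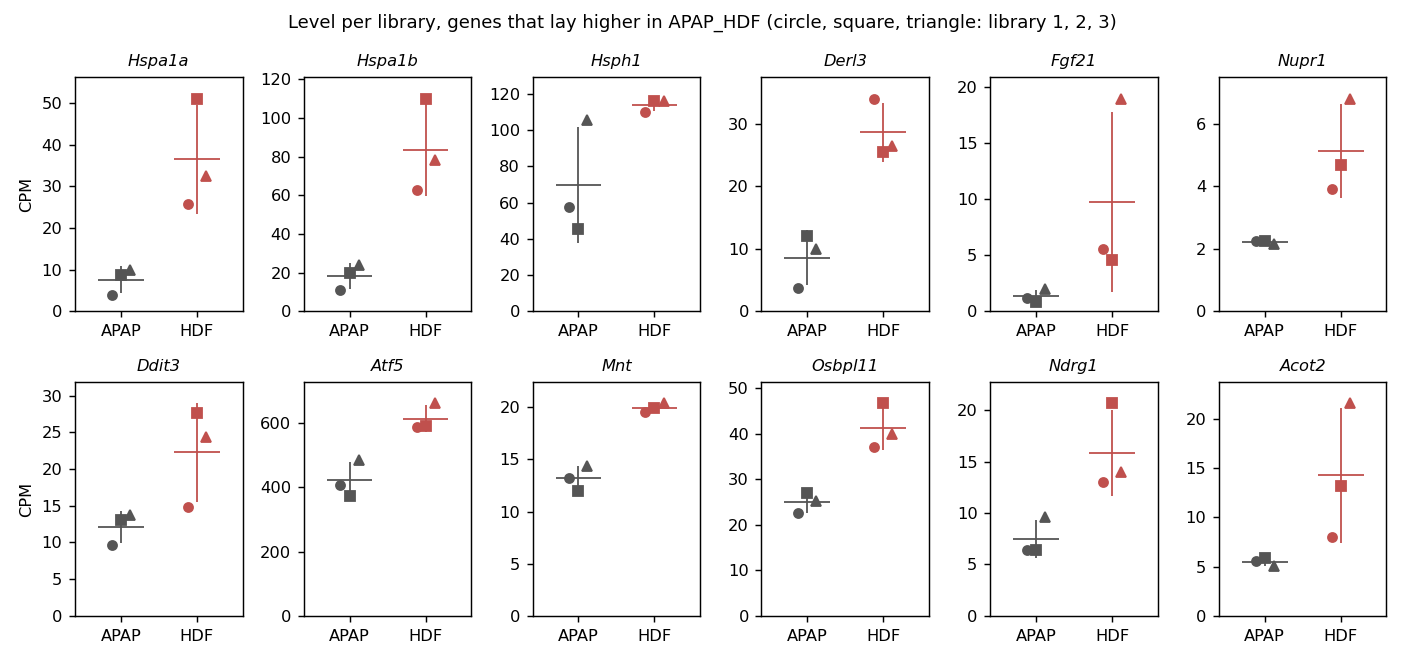
CPM per library of 12 genes that lay higher in APAP_HDF (vertical axes in CPM from 0, grey for APAP and red for APAP_HDF; circle, square and triangle are libraries 1, 2 and 3; horizontal bar is the mean and vertical bar 1 SD, n = 3). In each of the 12 genes the 3 APAP_HDF points lie above the 3 APAP points, closely so in Hsph1, where APAP library 3 lay at 106 CPM, and widely in Derl3.

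Among single genes outside these lists, several with a small p that lay higher act in transcription and lipid transfer. Mnt, a MAX partner that represses MYC targets, lay at 13.2, 12 and 14.4 CPM in APAP and at 19.5, 19.9 and 20.4 CPM in APAP_HDF (0.59 ± 0.11). The 3 APAP_HDF libraries agreed closely in Mnt, with an SD of 0.43 CPM. Osbpl11, a lipid transfer protein of the Golgi, lay at 22.5, 27.1 and 25.4 CPM and at 37.2, 46.7 and 39.9 CPM (0.72 ± 0.14). Colec12, a scavenger receptor, lay at 45.8, 43.4 and 45.6 CPM and at 67.6, 62 and 57.1 CPM (0.47 ± 0.09). Pnrc1, a nuclear receptor coregulator, differed by 0.95 ± 0.19 and Frat2, which binds the kinase GSK3, by 1.46 ± 0.30. All 5 were called by DESeq2 and had groups that did not overlap.

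Some targets of p53 and of hypoxia-inducible factors lay higher too. Bbc3, which encodes the proapoptotic protein PUMA, lay at 4.29, 3.99 and 3.58 CPM in APAP and at 6.7, 7.75 and 6.79 CPM in APAP_HDF (0.84 ± 0.18, called by DESeq2). Bax, of the same pathway of cell death, lay at 15, 17.2 and 16.3 CPM and at 18, 19.4 and 19.1 CPM (0.22 ± 0.10). The cell cycle inhibitor Cdkn1a, the best known p53 target, lay at 91, 92.1 and 72.6 CPM and at 98.7, 71.4 and 109 CPM, with overlap (0.13 ± 0.16). The median of the 18 p53 targets was 0.03, and 2 of them lay higher without overlap, against 5.66% of all tested genes. Ndrg1, a gene induced by low oxygen and by stress, lay at 6.38, 6.44 and 9.64 CPM and at 13, 20.7 and 14 CPM (1.08 ± 0.24, called by DESeq2). Adm, the vasodilator adrenomedullin, lay at 2.65, 4.22 and 3.68 CPM and at 7.93, 5.79 and 6.59 CPM (0.94 ± 0.25). Of 19 hypoxia and glycolysis genes 13 lay higher, with a median of 0.15 that was 0.03 without APAP library 1. In 4 that lay higher and in 1 that lay lower the groups did not overlap, against 5.66% and 6.08% of all tested genes.

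Genes of fatty acid oxidation lay slightly higher, most of all in APAP_HDF library 3. Acot2, a mitochondrial thioesterase, lay at 5.52, 5.92 and 5.09 CPM in APAP and at 8.01, 13.2 and 21.6 CPM in APAP_HDF (2.59-fold, 1.37 ± 0.37, called by DESeq2). Pdk4, a kinase that restrains glucose oxidation, lay at 3.28, 4.76 and 4.66 CPM and at 7.06, 5.64 and 16 CPM (1.17 ± 0.38, and 0.58 without APAP_HDF library 3). Of 32 members, all expressed, 29 lay higher and 3 lower, with a median of 0.27 that was 0.11 without APAP_HDF library 3. No overlap was found in 4 that lay higher (Fgf21, which is also in the stress list, Acot2, Pdk4 and Cyp4a10) and in 1 that lay lower, against 5.66% and 6.08% of all tested genes. That 1 was Ucp2, a mitochondrial carrier that macrophages also express, at 25.2, 25.7 and 35.4 CPM against 21.6, 19.3 and 14.1 CPM (-0.65 ± 0.18). APAP_HDF library 3 had the highest value of the 6 libraries in 25 of the 32. The average level over the list was -0.25, -0.43 and 0.06 in APAP and -0.09, 0.17 and 0.55 in APAP_HDF. APAP library 3 thus lay above APAP_HDF library 1 by this measure, and the groups overlapped.

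Lipid synthesis showed no common direction. Scd1, the desaturase that makes oleate, lay at 341, 329 and 329 CPM in APAP and at 228, 126 and 148 CPM in APAP_HDF (-1.0 ± 0.28, called by DESeq2). Hsd17b13, a lipid droplet enzyme listed with periportal genes and not with synthesis, lay at 462, 463 and 465 CPM and at 603, 659 and 615 CPM (0.43 ± 0.10, called by DESeq2). In both genes the 3 APAP libraries agreed closely and the groups did not overlap. The median was 0.03 over 20 genes of fatty acid synthesis, of which 11 lay higher and 9 lower. It was 0.05 over 20 genes of cholesterol synthesis, with 11 higher and 9 lower. There APAP_HDF library 1 had the highest value in 19 and the median was -0.36 without it.

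Enzymes of drug metabolism and conjugation lay lower for some members. Cyp2c70, the mouse enzyme that makes muricholic acids, had the smallest p of the genes that lay lower at 1 CPM or more. It lay at 161, 205 and 113 CPM in APAP and at 68.8, 71 and 79.2 CPM in APAP_HDF (2.19-fold lower, log2 difference -1.13 ± 0.18). Cyp2c50, a related P450, lay at 45.7, 72 and 73.7 CPM and at 13.7, 34.8 and 35.7 CPM (-1.19 ± 0.34). Papss2, which makes the sulfate donor for conjugation, lay at 71.9, 65.4 and 48.6 CPM and at 33.2, 39.7 and 30.3 CPM (-0.85 ± 0.16). Inmt, a methyltransferase, lay at 9.52, 8.21 and 11.2 CPM and at 1.75, 5.72 and 3.48 CPM (-1.41 ± 0.34). In each of these 4 the groups stood apart, and DESeq2 called each. Aldh1a7, an aldehyde dehydrogenase, lay at 183, 183 and 147 CPM and at 115, 121 and 115 CPM (-0.54 ± 0.11), and the carboxylesterase gene Ces2g at 43.5, 66.5 and 40.4 CPM and at 27.9, 28.4 and 30.1 CPM (-0.80 ± 0.16). Reads of the Cyp2c and Ces2 families can be shared between similar members.

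Of the P450 genes that activate acetaminophen, Cyp1a2 and Cyp3a11 lay lower on average with overlap, and Cyp2e1 did not. Cyp2e1, the main one, lay at 514, 699 and 637 CPM in APAP and at 399, 644 and 935 CPM in APAP_HDF (0.10 ± 0.31). Cyp1a2 lay at 17.9, 167 and 46.8 CPM and at 25.7, 45.1 and 47.5 CPM (-0.97 ± 0.67), and its sign turned, to 0.28, without APAP library 2. Cyp3a11 lay at 446, 813 and 502 CPM and at 322, 528 and 359 CPM, with overlap (-0.54 ± 0.24). Of 25 phase I genes 3 lay lower and 1 higher without overlap, against 6.08% and 5.66% of all genes. The median was -0.10 and turned to 0.06 without APAP_HDF library 1, which had the lowest value in 20 of the 25. Of 26 phase II genes 3 lay lower and 1 higher without overlap, and their median of -0.11 turned to 0.05 without that library.

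Bile acid genes had a similar pattern. Cyp7a1, which controls the main route from cholesterol to bile acids, lay at 2.58, 3.88 and 1.36 CPM in APAP and at 0.52, 1.45 and 0.94 CPM in APAP_HDF, so that APAP library 3 overlapped with APAP_HDF (-1.41 ± 0.40, called by DESeq2). Baat, which conjugates bile acids, lay at 149, 125 and 103 CPM and at 90.5, 102 and 92.5 CPM (-0.40 ± 0.14). Abcb11, the bile salt export pump, lay at 189, 304 and 174 CPM and at 104, 172 and 149 CPM (-0.65 ± 0.23). The groups were narrowly apart in Baat and Abcb11. Of 21 members 15 lay lower, 3 of them without overlap against 6.08% of all tested genes, with a median of -0.22, and that median was 0.07 without APAP_HDF library 1.

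Bhmt, which remethylates homocysteine with betaine, had a wide range among the APAP libraries. It lay at 1152, 696 and 156 CPM in APAP and at 184, 148 and 170 CPM in APAP_HDF (-1.99 ± 0.57, called by DESeq2). APAP library 3 thus lay among the APAP_HDF libraries. The difference was -2.48 without that library, where edgeR called it, and -1.35 without APAP library 1. In the list of urea cycle and amino acid breakdown, which holds Bhmt, 21 of 30 genes lay lower and in none of the 30 were the groups apart, against 11.7% of all tested genes in either direction. The median of -0.17 came to -0.00 without APAP_HDF library 1, which had the lowest value in 23 of the 30.

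Secreted and signalling proteins of the liver had single members that lay lower. Lect2, a chemotactic hepatocyte protein, lay at 127, 111 and 103 CPM in APAP and at 64.6, 72.5 and 75.3 CPM in APAP_HDF (-0.68 ± 0.14). Hamp, the iron hormone hepcidin, lay at 731, 1083 and 1145 CPM and at 518, 548 and 723 CPM (-0.73 ± 0.18). Glul, the glutamine synthetase of hepatocytes next to the central vein, lay at 30.2, 34.5 and 40.5 CPM and at 27.8, 22 and 24.6 CPM (-0.50 ± 0.14). The groups did not overlap in these 3, closely so in Hamp, and DESeq2 called Lect2 and Hamp. Hamp2, the second hepcidin gene, lay lower without overlap as well (-0.66 ± 0.26), but reads of the pair can be shared. The secreted hepatocyte proteins as a list had a median of -0.01 over 20 genes. Rspo3, a WNT amplifier made by central vein endothelium, lay at 3.59, 2.84 and 2.9 CPM and at 2.19, 2.02 and 1.12 CPM (-0.80 ± 0.26).

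**Figure D3:**
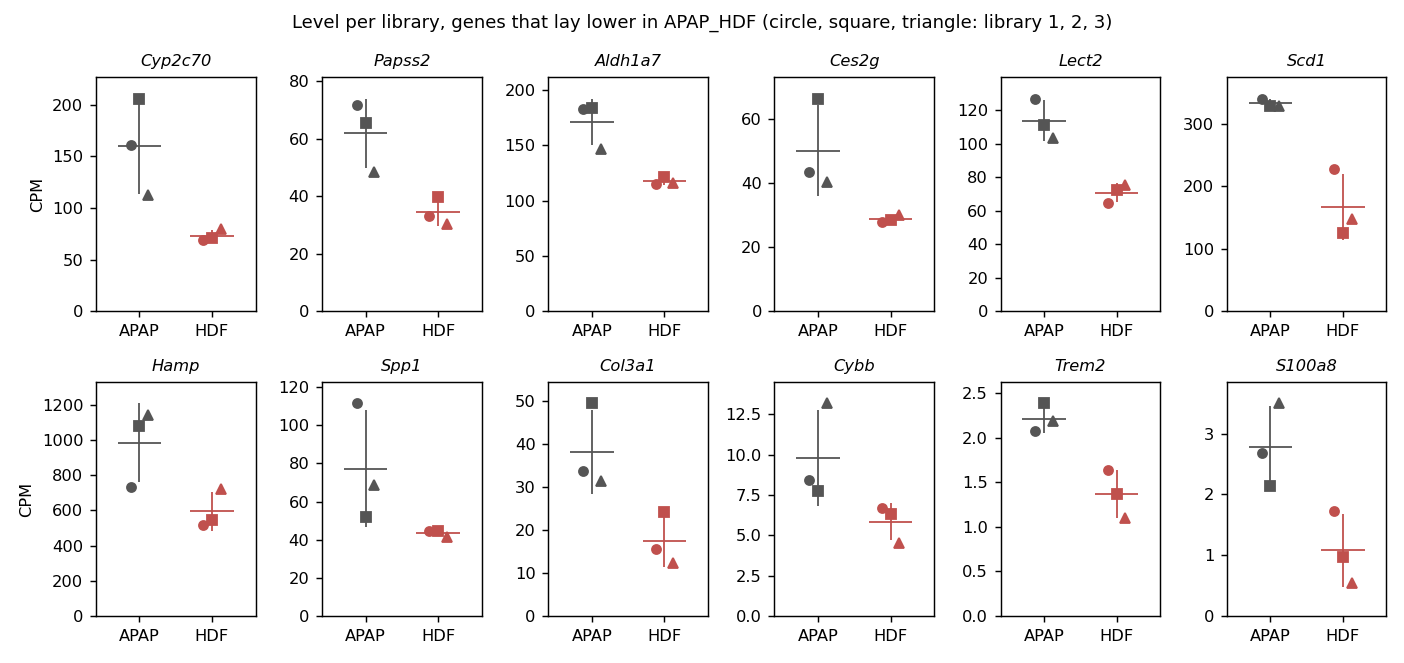
CPM per library of 12 genes that lay lower on average in APAP_HDF (vertical axes in CPM from 0, grey for APAP and red for APAP_HDF; circle, square and triangle are libraries 1, 2 and 3; horizontal bar is the mean and vertical bar 1 SD, n = 3). The APAP_HDF points sit close together in Cyp2c70, at 68.8 to 79.2 CPM, below the 3 APAP points.

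Genes of the extracellular matrix lay lower. Col3a1, a fibrillar collagen of scar and vessel walls, lay at 33.7, 49.5 and 31.4 CPM in APAP and at 15.6, 24.1 and 12.4 CPM in APAP_HDF (2.20-fold lower, -1.14 ± 0.24, called by DESeq2). Col1a1, the main fibrillar collagen, lay at 20.4, 34.1 and 18.8 CPM and at 14.2, 17.6 and 9.04 CPM (-0.84 ± 0.27). Col6a3, a microfibrillar collagen, lay at 14.8, 15.3 and 13.6 CPM and at 8.06, 10.7 and 6.14 CPM (-0.81 ± 0.23). Postn, a matrix protein of wound repair, lay at 4.02, 6.35 and 4.87 CPM and at 2.25, 3.79 and 1.52 CPM (-1.0 ± 0.32). In these 4 the lowest APAP library still lay above the highest APAP_HDF library. Fn1, which hepatocytes also secrete, lay at 4317, 5664 and 5243 CPM and at 5173, 4933 and 5519 CPM (0.04 ± 0.14).

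Of 36 matrix genes, all expressed, 33 lay lower and 3 higher, with a median of -0.55. In 9 the groups did not overlap, all of them lower in APAP_HDF, against 6.08% of all tested genes. The average level was 0.34, 0.53 and -0.06 in APAP and -0.05, -0.01 and -0.75 in APAP_HDF, so the list as a whole overlapped between APAP library 3 and APAP_HDF libraries 1 and 2. APAP_HDF library 3 had the lowest value in 26 of the 36, and without it the median was -0.31. In bulk liver, fewer cells of a type and less RNA per cell cannot be told apart. The markers of hepatic stellate cells, which make much of this matrix, moved beside it with a median of -0.30 over 17 genes, or -0.16 without APAP library 2. Their summed level was 392 to 501 CPM in APAP and 306 to 412 CPM in APAP_HDF, none was at 0, and their part in the matrix result was not tested. Acta2, the actin of activated stellate cells and smooth muscle, lay at 28, 39 and 10.7 CPM and at 19.2, 19.2 and 5.9 CPM, with overlap (-0.80 ± 0.55).

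Markers of monocytes and macrophages lay lower in APAP_HDF. Cybb, a subunit of the phagocyte oxidase, lay at 8.46, 7.73 and 13.2 CPM in APAP and at 6.67, 6.34 and 4.55 CPM in APAP_HDF (-0.74 ± 0.22). Trem2, a receptor of macrophages that clear lipid and dead cells, lay at 2.07, 2.39 and 2.19 CPM and at 1.64, 1.37 and 1.1 CPM (-0.69 ± 0.21). Lyz2, the lysozyme of myeloid cells, lay at 43.7, 46.3 and 66.6 CPM and at 38.9, 37.7 and 23.6 CPM (-0.64 ± 0.23). The groups stood apart in each of these 3. Cd68, a lysosomal marker of the same cells, lay at 43.1, 32.7 and 40.6 CPM and at 46.1, 37 and 37.9 CPM (0.05 ± 0.16).

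Of 19 such markers, all expressed, 17 lay lower and 2 higher, 8 of them lower without overlap against 6.08% of all tested genes, and the median was -0.65. Their summed level was 244 to 326 CPM in APAP and 178 to 241 CPM in APAP_HDF, and none was at 0. APAP library 3 had the highest value in 11 of the 19 and APAP_HDF library 3 the lowest in 15. The median was -0.34 without APAP library 3. Among 16 markers listed for Kupffer cells, the resident macrophages, of which Cdh5 also marks endothelium and Xcr1 dendritic cells, 14 lay lower and the median was -0.71, or -0.42 without APAP library 3. The groups stood apart in 2 of the 16, both lower, against 6.08% of all tested genes. One was Cd5l, a secreted macrophage protein, at 37.4, 57.3 and 75.7 CPM against 31.5, 36.4 and 16.3 CPM (-1.02 ± 0.36). Clec4f, the marker most specific to Kupffer cells, lay at 23.2, 21.1 and 40.8 CPM and at 14.8, 22.1 and 13.3 CPM, with overlap (-0.76 ± 0.32). The summed level of that list overlapped between the groups, at 464 to 806 CPM in APAP and 488 to 582 CPM in APAP_HDF.

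Markers of the other leukocytes were scarce. S100a8, an alarmin of neutrophils, lay at 2.69, 2.15 and 3.5 CPM in APAP and at 1.73, 0.98 and 0.54 CPM in APAP_HDF (-1.35 ± 0.37). Its partner S100a9 lay at 2.38, 2.35 and 2.75 CPM and at 2.6, 1.12 and 0.72 CPM, where APAP_HDF library 1 lay within APAP (-0.74 ± 0.36). Only 10 of 15 neutrophil markers passed the filter on low counts, and 11 had a mean under 1 CPM. Of the 10, all lay lower, 1 of them without overlap against 6.08% of all tested genes. The median of -0.53 was -1.21 without APAP_HDF library 1 and -0.33 without APAP_HDF library 2. For T and NK cells 9 of 16 markers passed the filter and 15 were under 1 CPM, and for B and plasma cells 8 of 11 passed and 10 were under 1 CPM. The T and NK median of -0.71 was -0.18 without APAP library 3 and -1.22 without APAP_HDF library 2, and the B and plasma median was -0.76. In each of these lists 1 marker lay lower without overlap, against the same 6.08%.

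Inflammatory mediators lay lower on average with wide overlap. Of 26 cytokines, chemokines and adhesion molecules 24 lay lower, 3 of them without overlap against 6.08% of all tested genes, with a median of -0.40 that was -0.20 without APAP library 3. Vcam1, an adhesion molecule for leukocytes, lay at 10.3, 12.6 and 19.9 CPM in APAP and at 8.46, 8.81 and 5.02 CPM in APAP_HDF (-0.94 ± 0.28). Spp1, which encodes osteopontin and is also a marker of cholangiocytes, lay at 112, 51.9 and 68.6 CPM and at 44.4, 44.7 and 41.6 CPM (-0.83 ± 0.22). Both had groups apart. The monocyte attractant Ccl2 lay at 5.41, 5.56 and 12.2 CPM and at 7.47, 4.16 and 4.22 CPM, and Il1b at 0.96, 0.80 and 2.05 CPM and at 0.90, 0.83 and 0.65 CPM. Ccl2 and Il1b overlapped between the groups. Of 13 cholangiocyte markers, Spp1 among them, 11 lay lower and 2 higher, with a median of -0.47. In 3 that lay lower and in 1 that lay higher the groups did not overlap, against 6.08% and 5.66% of all tested genes. The average level over the list was 0.19, 0.14 and 0.46 in APAP and -0.05, -0.23 and -0.51 in APAP_HDF, so the groups stood apart by this measure. As given for the integrated stress response, arbitrary group labels would set a share of 0.1 of the lists apart. Krt19, a keratin of bile ducts, differed by -0.47 ± 0.27. The higher one without overlap was Sox9, a factor of bile ducts and of regenerating hepatocytes, at 0.41 ± 0.19.

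**Figure D4:**
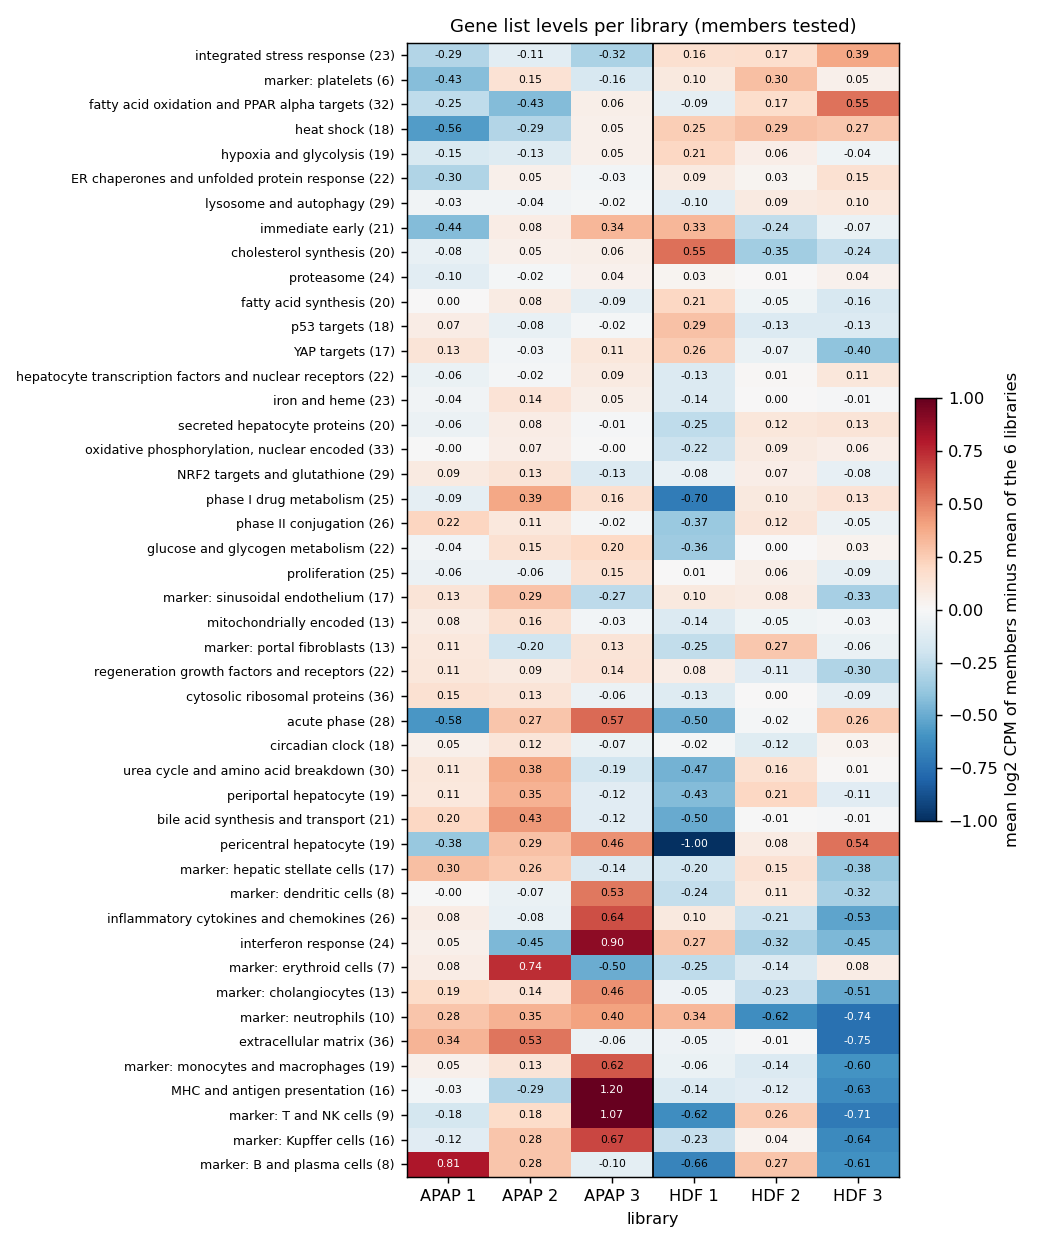
Mean log2 CPM of the tested members of each of 46 gene lists in each of the 6 libraries, relative to the mean of the 6 libraries (colour scale and printed values on a log2 scale, number of members in brackets, lists ordered by the median difference). The integrated stress response row runs from -0.32 to -0.11 in APAP and from 0.16 to 0.39 in APAP_HDF, while the row of MHC genes stands at 1.20 in APAP library 3 and between -0.63 and -0.03 in the other 5.

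Antigen presentation and interferon genes lay lower on average, with medians that depended on APAP library 3. All 16 genes of MHC and antigen presentation lay lower in APAP_HDF, with a median of -0.68, and all 16 had their highest value in APAP library 3. The groups did not overlap in 2 of the 16, H2-DMb1 and Ctss, against 6.08% of all tested genes. H2-DMb1, which helps to load peptides on MHC class II, lay at 1.46, 1.44 and 3.76 CPM in APAP and at 1.02, 1.27 and 0.51 CPM in APAP_HDF (-1.26 ± 0.42, and -0.63 without APAP library 3). Ctss, a protease of the same pathway, differed by -0.89 ± 0.34, and by -0.40 without that library. H2-Aa, an MHC class II chain, lay at 5.48, 4.98 and 22.2 CPM and at 4.39, 5.7 and 3.51 CPM, with overlap (-1.27 ± 0.53). Cxcl9, a chemokine induced by interferon gamma, lay at 1.19, 1.03 and 20.4 CPM and at 0.79, 1.33 and 1.03 CPM. The interferon-inducible GTPases Gvin1 and Tgtp1 lay at 57.2 and 31.9 CPM in APAP library 3, against 4.07 to 8.84 CPM and 1.16 to 2.55 CPM in the other 5 libraries. Without APAP library 3 the MHC median was -0.10, the median of 24 interferon genes turned from -0.45 to 0.07, and the difference of Cxcl9 went from -2.87 to -0.09. The T and NK cell markers were highest in the same library in 8 of 9 genes.

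Small shifts in one direction were found in the machinery of translation and in mitochondrial transcripts. All 36 cytosolic ribosomal protein genes lay lower in APAP_HDF, by 0.05 to 0.24 on the log2 scale, with a median of -0.15 that ran from -0.23 without APAP library 3 to -0.11 without APAP library 1. Rpl4 lay at 740, 693 and 606 CPM in APAP and at 588, 603 and 574 CPM in APAP_HDF (-0.21 ± 0.11), and Rps23 at 247, 221 and 204 CPM and at 184, 203 and 181 CPM (-0.24 ± 0.11). The groups stood apart in those 2, narrowly, and in 6 of the 36 in all, against 6.08% of all tested genes. The average level over the list was 0.153, 0.130 and -0.062 in APAP and -0.130, 0.002 and -0.092 in APAP_HDF, with overlap. All 13 mitochondrially encoded genes lay lower as well, with a median of -0.13. Their average level was 0.083, 0.160 and -0.0292 in APAP and -0.139, -0.0462 and -0.0284 in APAP_HDF, so APAP library 3 overlapped with APAP_HDF. Every gene of both lists was highest in APAP library 1 or 2. The mitochondrial share of counts was 7.16%, 7.06% and 6.64% in APAP and 6.46%, 6.21% and 6.20% in APAP_HDF, without overlap. The nuclear-encoded genes of oxidative phosphorylation had a median of -0.04 over 33 genes. Across the other scalings and tools with all libraries the ribosomal median lay between -0.17 and -0.14 and the mitochondrial median between -0.15 and -0.12. Genes of such a list vary together between libraries, and members are not replicates.

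**Figure D5:**
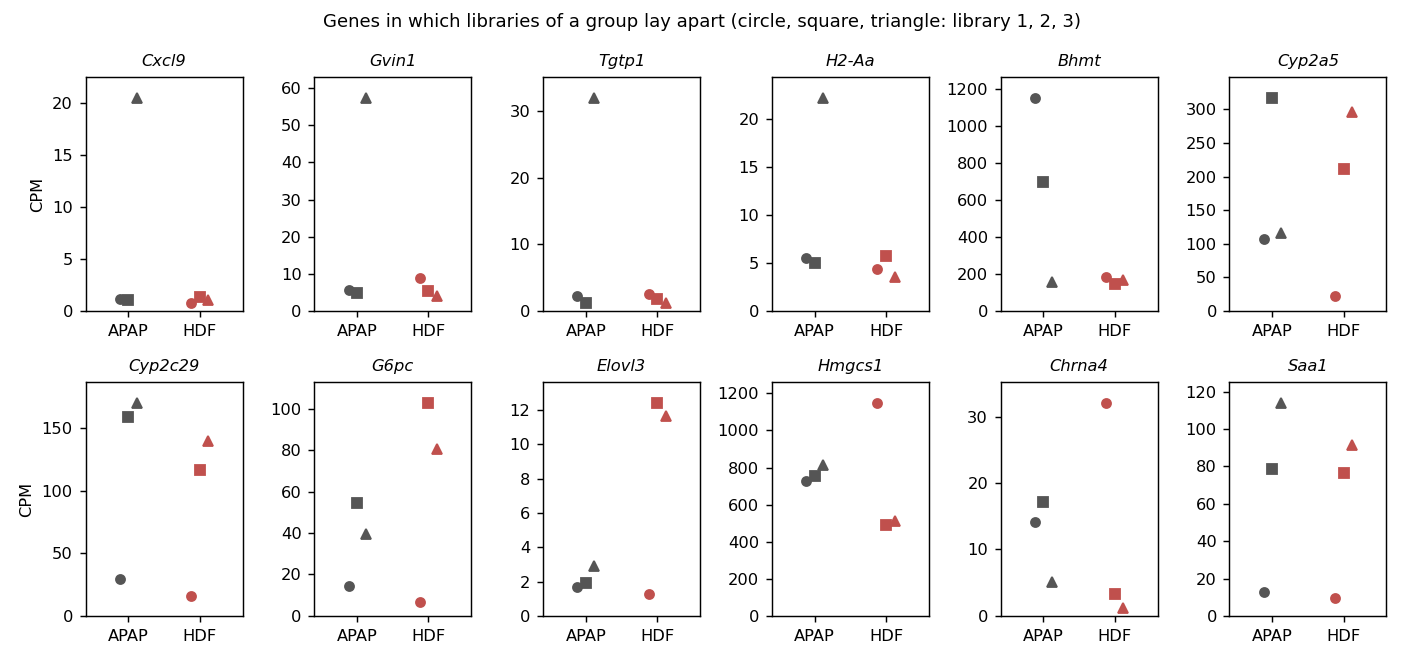
CPM per library of 12 genes in which libraries of a group lay apart (vertical axes in CPM from 0, grey for APAP and red for APAP_HDF; circle, square and triangle are libraries 1, 2 and 3). APAP library 3 stands alone in Cxcl9, Gvin1, Tgtp1 and H2-Aa, and APAP_HDF library 1 stands below or above its group in Cyp2a5, Cyp2c29, G6pc, Elovl3, Hmgcs1, Chrna4 and Saa1.

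Several genes with a wide spread within APAP_HDF set library 1 apart. Cyp2a5, a pericentral P450, lay at 22.3, 211 and 296 CPM in APAP_HDF and at 107, 316 and 116 CPM in APAP. Cyp2c29 lay at 16.3, 117 and 140 CPM in APAP_HDF and at 29.6, 159 and 170 CPM in APAP, with 1 low library in each group. G6pc, the last step of glucose release, lay at 6.78, 103 and 80.7 CPM in APAP_HDF and at 14.3, 54.4 and 39.7 CPM in APAP. Saa1, an acute phase protein, lay at 9.82, 76.6 and 91.5 CPM in APAP_HDF and at 12.5, 78.7 and 114 CPM in APAP. In these 4 genes the range within each group exceeded the difference between the group means. Elovl3, a fatty acid elongase, lay at 1.26, 12.4 and 11.7 CPM in APAP_HDF and at 1.7, 1.9 and 2.88 CPM in APAP. Its difference of 1.95 ± 0.70 became 2.46 without APAP_HDF library 1. Hmgcs1, of cholesterol synthesis, lay at 1147, 491 and 514 CPM in APAP_HDF and at 726, 753 and 812 CPM in APAP. Chrna4, a nicotinic receptor subunit, lay at 32, 3.32 and 1.18 CPM in APAP_HDF and at 14.1, 17.1 and 5.13 CPM in APAP.

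In the pericentral list APAP_HDF library 1 had the lowest value in 13 of 19 genes and lay at -1.0, against 0.08 and 0.54 in APAP_HDF libraries 2 and 3 and -0.38 to 0.46 in APAP. The median of that list was -0.22 and turned to 0.10 without this library. The same library was lowest in 15 of 20 secreted hepatocyte proteins and 28 of 33 genes of oxidative phosphorylation. Counted over genes whose values within the group spanned more than 1 on the log2 scale, APAP_HDF library 3 was the low one in 25.8% of 2963 and library 1 in 24.3%. In APAP, library 3 was the high one in 20.3% of 3107 such genes and the low one in 19.5%.

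Several genes of responses known in acetaminophen injury overlapped between the groups. The glutathione synthesis gene Gclc lay at 882, 671 and 588 CPM in APAP and at 647, 1015 and 964 CPM in APAP_HDF (0.29 ± 0.20). The quinone reductase gene Nqo1 (-0.19 ± 0.35) and the heme oxygenase gene Hmox1 (-0.41 ± 0.32) overlapped between the groups as well, and the median of 29 NRF2 targets and glutathione genes was -0.06. Of the 29, 3 lay higher and 2 lower without overlap, against 5.66% and 6.08% of all tested genes. Mki67, a marker of dividing cells, lay at 0.56, 0.45 and 1.28 CPM and at 0.79, 0.44 and 0.15 CPM. Albumin overlapped too, with a difference of 0.04 ± 0.18. Ccnd1, the cyclin that opens the cell cycle in regenerating liver, lay lower, at 14, 28.4 and 21.6 CPM and at 13, 10.6 and 11.7 CPM, narrowly without overlap (-0.86 ± 0.36). Over 25 proliferation genes the median was -0.12, and 0.03 without APAP library 3. Of the 25, 2 lay higher and 2 lower without overlap, against 5.66% and 6.08% of all tested genes.

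Some of the genes described also differed between the APAP_MSC and APAP_HDF groups, a contrast that uses the same APAP_HDF libraries and is no independent check. In it edgeR called 1563 of 17582 genes (8.89%). Cyp2c70 lay at a mean of 380 CPM in APAP_MSC, above the 73.0 ± 5.48 CPM (SD, n = 3) of APAP_HDF and the 159 ± 46.3 CPM of APAP (APAP_MSC minus APAP_HDF 2.38 ± 0.19 on the log2 scale, edgeR adjusted p = 4.03e-04). Scd1 (4.64 ± 0.32, edgeR adjusted p = 4.03e-04), Cyp7a1 (4.46 ± 0.38, edgeR adjusted p = 5.63e-04) and Inmt (4.92 ± 0.37, edgeR adjusted p = 5.63e-04) were higher in APAP_MSC. Mnt was lower there (-0.65 ± 0.11, edgeR adjusted p = 0.00651), and so were Frat2 (-1.78 ± 0.32, 0.00799), Adm (-1.74 ± 0.27, 0.00466) and Cd68 (-1.30 ± 0.16, 0.00173). Hspa1a (-1.33 ± 0.43, edgeR adjusted p = 0.0924), Fgf21 (-2.06 ± 0.60, 0.066), Ddit3 (0.41 ± 0.22, 0.283) and Derl3 (-0.40 ± 0.35, 0.524) did not pass.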

How the data were processed

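Poly(A) RNA from whole liver was sequenced after Tecan library preparation, per the labels' protocols. HISAT2, Subread and DESeq2 are named with builds mm39 and GRCm39 in the submitters' processing notes, and their settings, including the use of strand, are not given in the sources used here. The authors deposited raw read counts per gene symbol as whole numbers, which were used here. Their table of normalized values was not used, and 0 columns were left unmapped. The 24 repeated symbols and 22 symbols that read as dates stayed in the fit and are not named.

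With edgeR 4.0.16 in R 4.3.3, filterByExpr with the group left 17582 of 28956 genes, holding 99.966% of counts. TMM scaling and a robust quasi-likelihood fit with 1 term, the group, over the 9 libraries gave the contrasts (common biological coefficient of variation 0.197, 6 residual degrees of freedom), and p-values were two-sided and adjusted by Benjamini-Hochberg over all tested genes. CPM use TMM-scaled totals, with a prior count of 2 on the log2 scale. Where no read was counted the level could still be that of 3 counts, which was 0.0453 to 0.056 CPM in the 6 libraries (counting error only). The fit was tested on simulated counts. DESeq2 1.42.0 and limma-voom (limma 3.58.1) were alternatives, with other scalings, filters, fits and each library left out.

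The 46 gene lists and the comparison were chosen with earlier results of these data known, so lists are described by counts and medians and carry no test. Of 929 list symbols 925 were matched. Named genes are the 8 with the smallest p in each direction at 1 CPM or more without overlap, up to 4 members per list with the smallest p and the 2 with the highest mean CPM, 30 readouts, the 8 foremost DESeq2 calls and, for each group, the 8 genes with the largest SD at 5 CPM or more. Genes named outside this rule were Ddit4, Cebpb, Slc7a11, Cyp4a10, Cdh5 and further promoter matches (Asns, Chac1, Trib3, Vldlr, Hspd1, Hspe1, Chordc1), chosen after their values were seen. A few genes under this rule are left out here.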

Additional observations from a re-analysis of the deposited data

How the results depend on the processing

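The edgeR count of 0 genes at an adjusted p under 0.05 became 83 with DESeq2 and 69 with DESeq2 on every gene with a count, and ranged from 0 to 32 with 1 library left out. The scalings, filters, the fit on the 6 libraries, limma-voom and the earlier form of the quasi-likelihood test left it at 0. With 1 library left out, genes at an unadjusted p under 0.05 ranged from 364 to 1110 for higher and from 480 to 1361 for lower, most without APAP library 3 or APAP_HDF library 1 and fewest without APAP_HDF library 3. The cause was not tested. None of the 289 named genes changed direction while called. With all libraries edgeR called none, so that statement covers only the alternatives that made a call. Genes that were not called did change direction, for example Rxra in 8 of 20 alternatives. In 14 of 920 combinations of a list and an alternative, the list median moved by more than the spread between replicates. DESeq2 on every gene, plain library totals and the earlier quasi-likelihood form were added after seeing the data. No paired analysis was possible because the columns carry no replicate number. With 3 libraries a side, an exact permutation test of a single value cannot go below 0.1, and genes near the floor of 3 counts have differences that depend on the prior count.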

Other observations

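Genes of the circadian clock lay on opposite sides. Nfil3, a repressor of the output loop, lay at 17.6, 21.1 and 24.5 CPM in APAP libraries 1 to 3 and at 25.1, 47.3 and 40.2 CPM in APAP_HDF libraries 1 to 3 (log2 difference 0.83 ± 0.22 SE). Npas2, a partner of BMAL1, lay at 2.83, 2.17 and 1.71 CPM and at 3.02, 9.59 and 4.09 CPM (1.33 ± 0.41, and 0.67 without APAP_HDF library 2). Dbp, an activator of the output loop, lay at 3.01, 5.21 and 2.73 CPM and at 2.5, 0.80 and 1.47 CPM (-1.19 ± 0.36). The groups did not overlap in these 3, but narrowly so, with APAP_HDF library 1 next to the APAP libraries in each. Of 18 clock genes they were the only ones without overlap, 2 higher and 1 lower, against 5.66% and 6.08% of all tested genes. The median over the 18 was -0.16, or -0.07 without APAP library 1. Cry1, a repressor of the core loop, lay at 15.6, 14.8 and 23.5 CPM and at 19.7, 39.6 and 30 CPM, with overlap (0.73 ± 0.25). None passed the edgeR test. The labels used here give 24 h as the time point but no hour of day.

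Genes of lysosomes and autophagy lay slightly higher, 22 of 29, with a median of 0.10 that was 0.04 without APAP_HDF library 3. The average level over the list was -0.03, -0.04 and -0.02 in APAP and -0.10, 0.09 and 0.10 in APAP_HDF. APAP_HDF library 1 thus lay below every APAP library by this measure, and it had the lowest value in 10 of the 29. Sqstm1, the autophagy receptor p62, lay at 446, 718 and 649 CPM in APAP and at 733, 893 and 1062 CPM in APAP_HDF (0.57 ± 0.19). Gla, the lysosomal alpha-galactosidase, lay at 9.65, 9.22 and 9.02 CPM and at 12, 13.2 and 11.9 CPM (0.41 ± 0.13). The groups did not overlap in 5 members that lay higher and in 1 that lay lower, against 5.66% and 6.08% of all tested genes.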
